A study of Homo sapiens with 6 samples.

Results

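The unfolded protein and ATF4 stress response genes examined here are 50 listed genes of endoplasmic reticulum (ER) stress and of the ATF4 amino acid response. They were taken by symbol from a table of 57781 rows of read counts, in which ERO1LB appears under its newer symbol ERO1B. The libraries came from A549, an established human lung adenocarcinoma cell line kept as a culture without drug treatment. In 3 libraries the cells carried a vector control, whose genotype the labels give as WT, and in 3 libraries METTL3, the catalytic subunit of the m6A writer complex, was knocked down with short hairpin RNA (shMETTL3). The count columns number the knocked down libraries sh1 to sh3, and whether these numbers mark hairpins or cultures of one hairpin is not given in the sources used here, nor whether the cells were clones or pools. All 50 genes passed the filter on low counts, and none lies on chromosome X.

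Proteins that enter the ER are folded there by chaperones and oxidoreductases, and a shortage of folding capacity is sensed by the membrane proteins IRE1 (encoded by ERN1), ATF6 and PERK (encoded by EIF2AK3). IRE1 splices the mRNA of the transcription factor XBP1, ATF6 is itself cleaved to a transcription factor, and both raise chaperone and degradation genes. PERK phosphorylates the initiation factor eIF2α, as does GCN2 (encoded by EIF2AK4), which senses uncharged tRNA, and either kinase favours translation of ATF4, a transcription factor that drives amino acid synthesis and uptake and, with its partner CHOP (encoded by DDIT3), genes of the stress outcome. The list was therefore read as an ER branch of 23 genes and an ATF4 branch of 27 genes. The ER branch holds sensors, chaperones, oxidoreductases, co-chaperones and degradation factors. The ATF4 branch holds GCN2 and transcription regulators, stress outputs, amino acid synthesis and transport. Counted under amino acid synthesis are also the one-carbon enzymes SHMT2 and MTHFD2 and the carboxykinase PCK2. Splicing of XBP1, cleavage of ATF6 and translation of ATF4 leave no trace in counts per gene and were not measured.

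The known elements of each pathway were looked for in promoter sequence. The list holds known targets of these pathways, so a higher share among the members than over all genes is no independent result. RefSeq promoter windows, from 250 bases before to 50 bases after a start site in GRCh38.p14, were found for 46 of the 50 genes, the exceptions being NUPR1, PDIA3, PSPH and SHMT2. The ER stress element, searched on both strands as CCAAT and CCACG with 9 bases of any kind between them, occurred in 8 of 22 ER branch genes and in 0 of 24 ATF4 branch genes, against 25 of 27305 genes with a window, or 0.0916%. The C/EBP-ATF response element bound by ATF4, searched as TGATGNAA on both strands, occurred in 1 of 22 ER branch genes and in 7 of 24 ATF4 branch genes, against 4.46% of all genes with a window. The unfolded protein response element TGACGTGG was found in 1 member, the chaperone gene HYOU1, against 0.927% of all genes. A match shows the letters only, not that a factor bound there.

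The ER stress elements of the 8 genes are shown because these genes include both the largest rise and the largest fall of the ER branch. They are printed 5′ to 3′ in the direction of the gene, with the CCAAT and CCACG boxes in capitals (or their reverse complements CGTGG and ATTGG) and 5 bases on each side. Each stretch was found exactly once on its chromosome of GRCh37 (hg19, the build of the counts), and those positions are given. HSP90B1 held a further match, on the opposite strand, that is not printed.
HSPA5, chr9:128003665-128003693, minus strand: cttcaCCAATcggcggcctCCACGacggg
HSP90B1, chr12:104323989-104324017, plus strand: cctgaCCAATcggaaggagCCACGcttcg
CALR, chr19:13049193-13049221, plus strand: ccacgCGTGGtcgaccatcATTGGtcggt
CANX, chr5:179125774-179125802, plus strand: cccggCCAATcttcacactCCACGaagaa
PDIA6, chr2:10952974-10953002, minus strand: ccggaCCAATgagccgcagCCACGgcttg
CRELD2, chr22:50312197-50312225, plus strand: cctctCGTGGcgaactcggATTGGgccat
XBP1, chr22:29196586-29196614, minus strand: gctggCCAATcgcggagggCCACGaccgt
ERO1B, chr1:236445478-236445506, minus strand: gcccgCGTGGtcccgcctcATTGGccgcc

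The matches to the C/EBP-ATF response element are shown for the 7 ATF4 branch genes and for HERPUD1 of the ER branch in the direction of the gene, with the 8 letters of the element in capitals and 8 bases on each side, except that the window ends 5 bases after the element of SLC3A2.
ASNS, chr7:97501773-97501796, minus strand: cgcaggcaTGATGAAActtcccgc
CHAC1, chr15:41245452-41245475, plus strand: ccctgccgTTGCATCActcctgcc
ATF3, chr1:212738550-212738573, plus strand: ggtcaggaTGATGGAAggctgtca
CEBPG, chr19:33864969-33864992, plus strand: gcggcgtcTGATGCAAcctgccgg
SLC7A1, chr13:30169803-30169826, minus strand: cgcactgcTGATGAAAcctggcgc
SLC3A2, chr11:62649200-62649220, plus strand: aggactccTTACATCAgctcc
SLC1A5, chr19:47288153-47288176, minus strand: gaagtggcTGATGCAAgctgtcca
HERPUD1, chr16:56965870-56965893, plus strand: gcggcgggTTGCATCAgcccgtgc

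The libraries held 14931426 to 19108928 counts, of which the 50 genes took 1.09 to 1.17%. Counts were scaled by edgeR's TMM method and are given as CPM, the counts of a gene relative to the scaled total of its library, and the floor of 3 counts in a library was at most 0.189 CPM. METTL3 was counted 887, 846 and 808 times with the vector and 364, 399 and 307 times with shMETTL3, a log2 fold change of -1.36 (standard error 0.067, adjusted p = 4.57e-16), and it shares 17.4% of its exon bases with TOX4 on the opposite strand (log2 fold change -0.08). The keratins KRT8 and KRT18, which mark epithelial cells, were detected in every library, and the summed level of 6 epithelial markers was 9971 to 10634 CPM in vector and 5153 to 5602 CPM in shMETTL3 libraries, with 5 of the 6 lower and KRT7 higher. Markers of the lung lineage (NKX2-1, SFTPB, SFTPC, NAPSA) summed to at most 3.04 CPM in any library, so markers of the lung lineage were nearly absent. Leukocyte markers summed to at most 0.567 CPM, with CD3E at 0, and the endothelial markers VWF and CDH5 to at most 0.123 CPM in vector and 1.40 to 1.89 CPM in shMETTL3 libraries, with VWF at 0. The 4 fibroblast markers summed to 6.35 to 9.38 CPM in vector and 13.5 to 14.1 CPM in shMETTL3 libraries, and the part of these shifts in the results was not tested. In bulk libraries, fewer cells with a transcript and less transcript per cell cannot be told apart.

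A gene was called at a Benjamini-Hochberg adjusted p under 0.05 over the 15125 genes tested with edgeR's quasi-likelihood test. Of the ER branch, 19 of 23 genes were called, 9 higher and 10 lower in shMETTL3 libraries, and of the ATF4 branch 23 of 27, 8 higher and 15 lower. Scaling by library size alone, under which the median over all genes shifted by 0.17 (log2), gave 12 higher and 7 lower in the ER branch and 11 higher and 11 lower in the ATF4 branch. Over all genes tested, 66.6% were called, 33.7% higher and 32.9% lower, so that a call in itself was common in these libraries. The members were also better expressed, with median vector levels of 87.5 and 62.9 CPM in the 2 branches against 16.3 CPM over all genes. The part of level in the shares called was not tested. The branches are therefore described by which members moved, how far and in which direction.

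**Figure D1:**
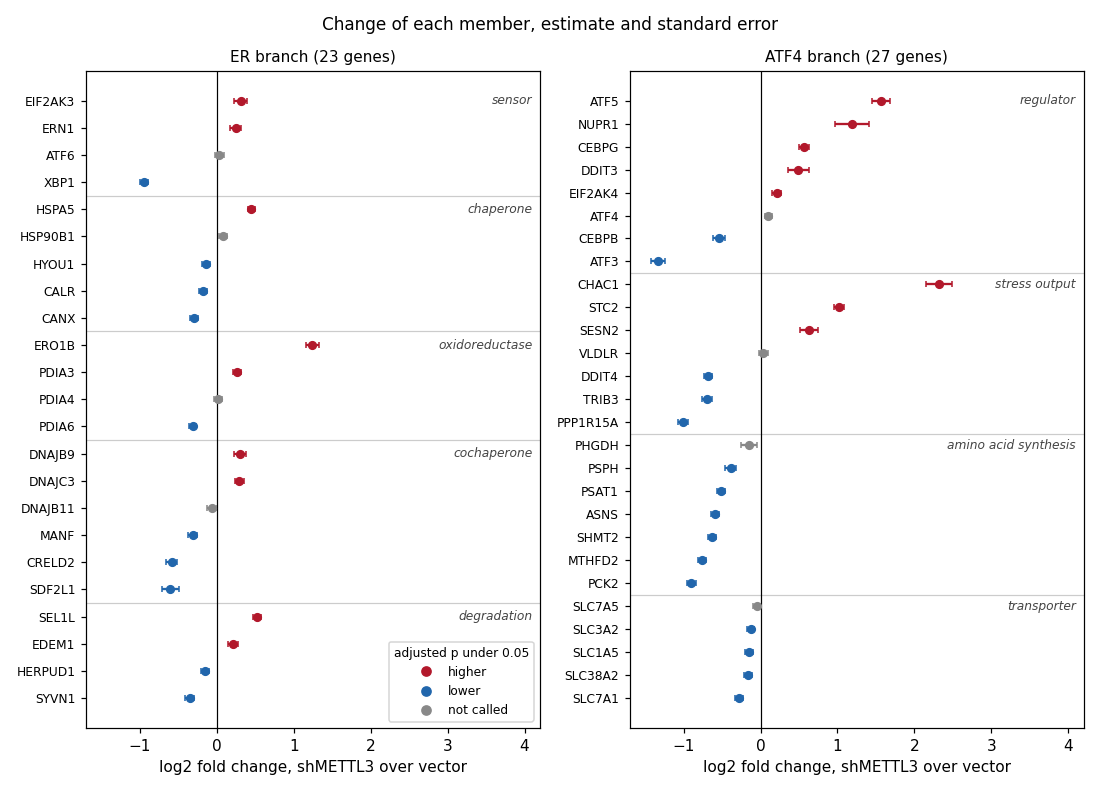
Log2 fold change of shMETTL3 over vector (horizontal axis) of the 23 ER branch genes and the 27 ATF4 branch genes, grouped by role, with bars for the standard error and colours for the call at an adjusted p under 0.05. All 7 amino acid synthesis genes and all 5 transporters lie to the left of 0, while regulators and stress outputs lie on both sides, from ATF3 at -1.34 to CHAC1 at 2.32.

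The sensors of the ER branch changed little at the mRNA level, whereas XBP1, the substrate of IRE1, fell. ERN1 stood at 33.2, 33.6 and 30.6 CPM in the vector libraries and at 36.7, 38.9 and 39.9 CPM in the shMETTL3 libraries. Every shMETTL3 library was above every vector library, with a log2 fold change of 0.24 (standard error 0.067, adjusted p = 0.00242). EIF2AK3 rose from 17.7, 17.1 and 17.3 CPM to 23.1, 21.5 and 19.8 CPM, a log2 fold change of 0.31 (standard error 0.082, adjusted p = 0.00173). ATF6 had 70.4, 68.7 and 72.8 CPM in vector and 76.0, 71.0 and 69.6 CPM in shMETTL3 libraries, with overlapping groups and a log2 fold change of 0.03 (adjusted p = 0.624).

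XBP1 lies on chromosome 22 of GRCh37 from 29190543 to 29196585 and encodes the transcription factor whose spliced form raises chaperone and degradation genes. It had 276, 295 and 291 CPM in the vector libraries and 146, 154 and 148 CPM in the shMETTL3 libraries. The groups were far apart, at 0.520 times the vector level, with a log2 fold change of -0.94 (standard error 0.051, adjusted p = 2.82e-15). It was the largest fall of the ER branch. Within each library, the count of XBP1 over that of ERN1 was 8.30, 8.80 and 9.50 in vector and 3.98, 3.95 and 3.71 in shMETTL3 libraries, a ratio that does not depend on scaling between libraries and was chosen after its values were seen.

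**Figure D2:**
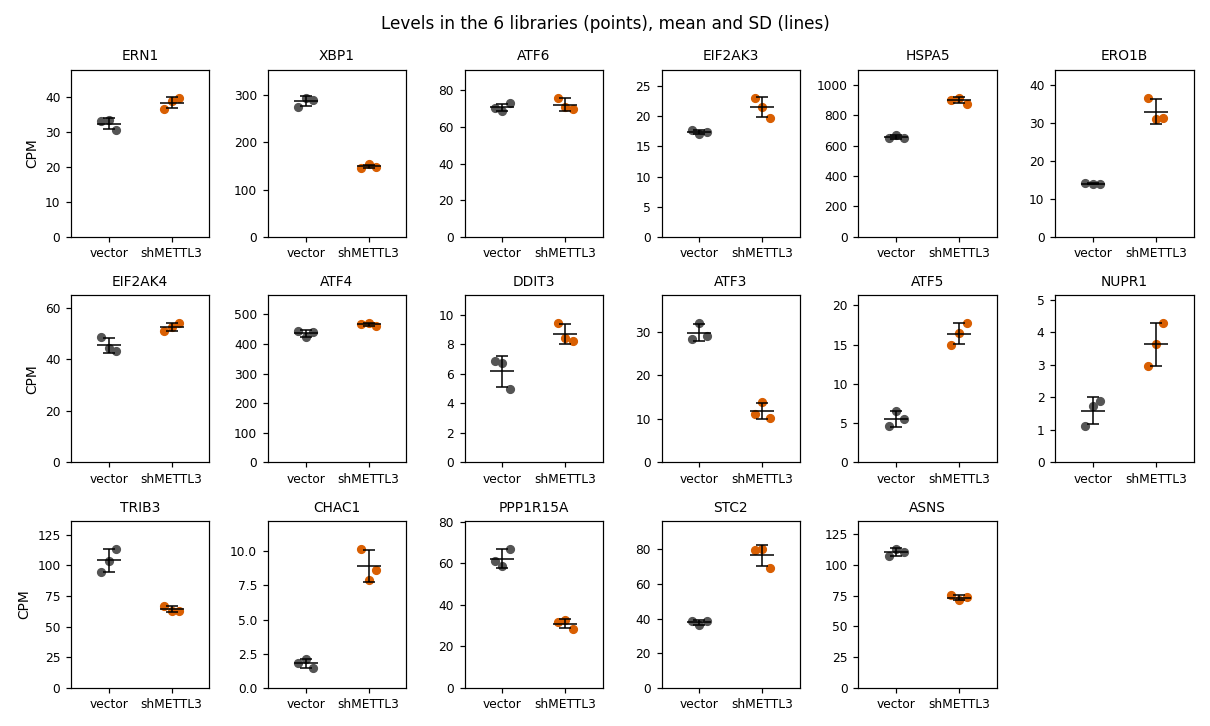
Levels in CPM (vertical axes from 0) of 17 members in the 3 vector and 3 shMETTL3 libraries, with points for libraries, a long line for the mean and bars for the SD. XBP1, ATF3, TRIB3, PPP1R15A and ASNS are lower in every shMETTL3 library than in any vector library, HSPA5, ERO1B, ATF5, CHAC1, NUPR1 and STC2 are higher, and only ATF6 shows overlapping groups.

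Among the chaperones, HSPA5 rose, CANX, CALR and HYOU1 fell, and HSP90B1 was not called. HSPA5 encodes BiP, the Hsp70 of the ER lumen that also holds the sensors inactive, and is the classical readout of ER stress. Its level was 653, 670 and 647 CPM in vector and 898, 916 and 876 CPM in shMETTL3 libraries. All shMETTL3 libraries were higher, at 1.36 times the vector level, with a log2 fold change of 0.45 (standard error 0.048, adjusted p = 4.84e-09). The lectin chaperones of the glycoprotein cycle were lower, although the call of CALR depended on the scaling. Calnexin (CANX) fell from 2015, 1964 and 1926 CPM to 1584, 1634 and 1578 CPM, a log2 fold change of -0.30 (adjusted p = 4.26e-06), and calreticulin (CALR) had one of -0.18 (adjusted p = 0.00339). With library size alone CALR stood at -0.00135 (adjusted p = 0.982). The count of HSPA5 over that of CALR went from 0.955 to 1.06 across the vector libraries to 1.55 to 1.62 across the shMETTL3 libraries, a ratio also chosen after its values were seen. HSP90B1, the Hsp90 of the ER known as GRP94, had 981 to 1024 CPM in vector and 1038 to 1079 CPM in shMETTL3 libraries, without a call (log2 fold change 0.08, adjusted p = 0.156). HYOU1, an Hsp110-type exchange factor of BiP, was slightly lower (log2 fold change -0.14, adjusted p = 0.0245), a call that was lost without vector replicate 3 (-0.10), without shMETTL3 replicate 1 (-0.11), with upper-quartile scaling (-0.12) and with library size alone (0.0346).

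The oxidoreductases, which form and shuffle disulfide bonds, were split as well. ERO1B, which reoxidizes protein disulfide isomerases, stood at 14.2, 13.9 and 13.9 CPM in vector and at 36.8, 31.0 and 31.3 CPM in shMETTL3 libraries. This was 2.36 times the vector level and the largest rise of the ER branch, with a log2 fold change of 1.24 (standard error 0.083, adjusted p = 3.65e-13). The disulfide isomerase PDIA3 was higher (log2 fold change 0.26, adjusted p = 3.96e-05), PDIA6 was lower (-0.32, adjusted p = 2.69e-06), and PDIA4 was not called (0.02, adjusted p = 0.802). The copy PDIA3P1 held up to 8.08% as many counts as PDIA3 and moved the same way, by a log2 fold change of 0.27.

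Of the co-chaperones, 2 of 6 rose and 3 fell, beside 33.7% and 32.9% of all genes. DNAJB9 and DNAJC3, J-domain partners of BiP, had log2 fold changes of 0.30 and 0.29, while SDF2L1 and CRELD2 had the largest falls of this role, at -0.61 and -0.59, and MANF, a secreted partner of BiP, was at -0.32. CRELD2 went from 42.3, 48.1 and 46.6 CPM to 29.6, 28.8 and 32.8 CPM. DNAJB11, the J-domain partner of BiP for misfolded secretory proteins, was not called (log2 fold change -0.06, adjusted p = 0.411).

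The 4 degradation factors were all called, 2 in each direction, beside 66.6% of all genes. SEL1L, the adaptor of the ubiquitin ligase SYVN1 (Hrd1), rose from 110, 102 and 96.7 CPM to 144, 149 and 150 CPM (log2 fold change 0.52, standard error 0.054, adjusted p = 2.54e-09). SYVN1 itself fell (log2 fold change -0.35, adjusted p = 1.19e-05). EDEM1, which marks misfolded glycoproteins for disposal, was higher at 0.21 (adjusted p = 0.00418). HERPUD1, which recruits the ligase complex, was lower at -0.16 (adjusted p = 0.00899), a call lost without shMETTL3 replicate 2 (-0.14) and with library size alone, where HERPUD1 stood at 0.0142.

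Of the 8 genes with an ER stress element in their window, 2 were higher (HSPA5 and ERO1B), 5 were lower (XBP1, CRELD2, PDIA6, CANX and CALR) and HSP90B1 was not called, with a median log2 fold change of -0.24, beside 66.6% of all genes called. With library size alone CALR lost its call and HSP90B1 was called higher (0.25, adjusted p = 7.44e-05). The 14 ER branch genes with a window but no match had a median of 0.02, with 6 higher and 5 lower. The letters thus stood before genes of both directions.

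ATF4 itself, on chromosome 22, changed little at the mRNA level. It had 443, 423 and 441 CPM in the vector libraries and 469, 471 and 462 CPM in the shMETTL3 libraries. The groups did not overlap, but the log2 fold change of 0.10 (standard error 0.048, adjusted p = 0.0683) did not pass the test. ATF4 was called higher in 5 of the 14 alternatives, at 0.10 to 0.12 in 4 of them and at 0.28 with library size alone. EIF2AK4, the GCN2 kinase upstream of it, was slightly higher, at 48.8, 44.4 and 43.1 CPM against 51.1, 52.6 and 54.1 CPM (log2 fold change 0.21, standard error 0.063, adjusted p = 0.00444).

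The transcription factors that work beside ATF4 moved strongly and apart. ATF3, a stress-induced repressor, had 28.4, 32.0 and 29.0 CPM in vector and 11.2, 13.8 and 10.2 CPM in shMETTL3 libraries. It lay at 0.396 times the vector level, the largest fall of all 50 genes, with a log2 fold change of -1.34 (standard error 0.093, adjusted p = 9.03e-13). ATF5, which is under translational control like ATF4, went the other way, from 4.57, 6.52 and 5.52 CPM to 15.02, 16.5 and 17.8 CPM (log2 fold change 1.57, standard error 0.121, adjusted p = 7.32e-12). ATF5 shares 196 exon bases with NUP62 on the opposite strand, and NUP62 was lower, at a log2 fold change of -0.31.

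DDIT3, which encodes CHOP, was low and modestly higher, at 6.85, 6.70 and 4.96 CPM in vector and 9.43, 8.43 and 8.19 CPM in shMETTL3 libraries. The groups did not overlap (log2 fold change 0.49, standard error 0.134, adjusted p = 0.00221). Its transcript shares 24.3% of its exon bases with MARS on the opposite strand, which had 172 to 184 CPM in vector and 176 to 185 CPM in shMETTL3 libraries and a log2 fold change of 0.04 (adjusted p = 0.497). Whether the authors counted by strand is not given in the sources used here, and without strand the reads of DDIT3 and MARS in the shared bases cannot be told apart. NUPR1, a small chromatin protein induced by stress, was the least expressed member, with 1.11, 1.74 and 1.90 CPM in vector and 2.95, 3.64 and 4.28 CPM in shMETTL3 libraries (log2 fold change 1.19, standard error 0.226, adjusted p = 4.08e-05).

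The C/EBP factors that pair with ATF4 on its response element were split. CEBPG was higher, with a log2 fold change of 0.57 (adjusted p = 5.7e-09), and CEBPB was lower, with one of -0.54 (adjusted p = 3.53e-07). CEBPB shares exon bases with the antisense transcript CEBPB-AS1, which was also lower at -0.87, at no more than 1.98 CPM in any library.

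Among the stress outputs, CHAC1 and TRIB3, which both follow ATF4 and CHOP, moved in opposite directions. CHAC1, on chromosome 15, encodes an enzyme that degrades glutathione. It had 1.78, 2.09 and 1.47 CPM in vector and 10.2, 7.93 and 8.63 CPM in shMETTL3 libraries, a 4.98-fold rise and the largest change of the 50 genes (log2 fold change 2.32, standard error 0.171, adjusted p = 2.7e-12). TRIB3, a pseudokinase that restrains ATF4 and AKT, had 94.9, 103 and 114 CPM in vector and 66.7, 63.0 and 62.6 CPM in shMETTL3 libraries (log2 fold change -0.70, standard error 0.061, adjusted p = 1.02e-10). In count ratios within a library, chosen after their values were seen, CHAC1 over TRIB3 was 0.0129 to 0.0203 in vector and 0.126 to 0.153 in shMETTL3 libraries.

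PPP1R15A encodes GADD34, the phosphatase subunit that ends eIF2α phosphorylation. It fell from 61.1, 58.5 and 67.1 CPM to 31.9, 32.4 and 28.3 CPM, a log2 fold change of -1.01 (standard error 0.068, adjusted p = 4.71e-13). DDIT4 and SESN2, which both restrain mTORC1, again went apart, with log2 fold changes of -0.68 (adjusted p = 3.4e-11) and 0.63 (adjusted p = 2.56e-05). STC2, a secreted glycoprotein of the PERK pathway, rose from 38.8, 36.2 and 38.4 CPM to 79.7, 80.4 and 69.3 CPM, or 2.03 times the vector level (log2 fold change 1.02, standard error 0.065, adjusted p = 1.14e-13). VLDLR, a lipoprotein receptor induced through ATF4, was not called (log2 fold change 0.04, adjusted p = 0.585).

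**Figure D3:**
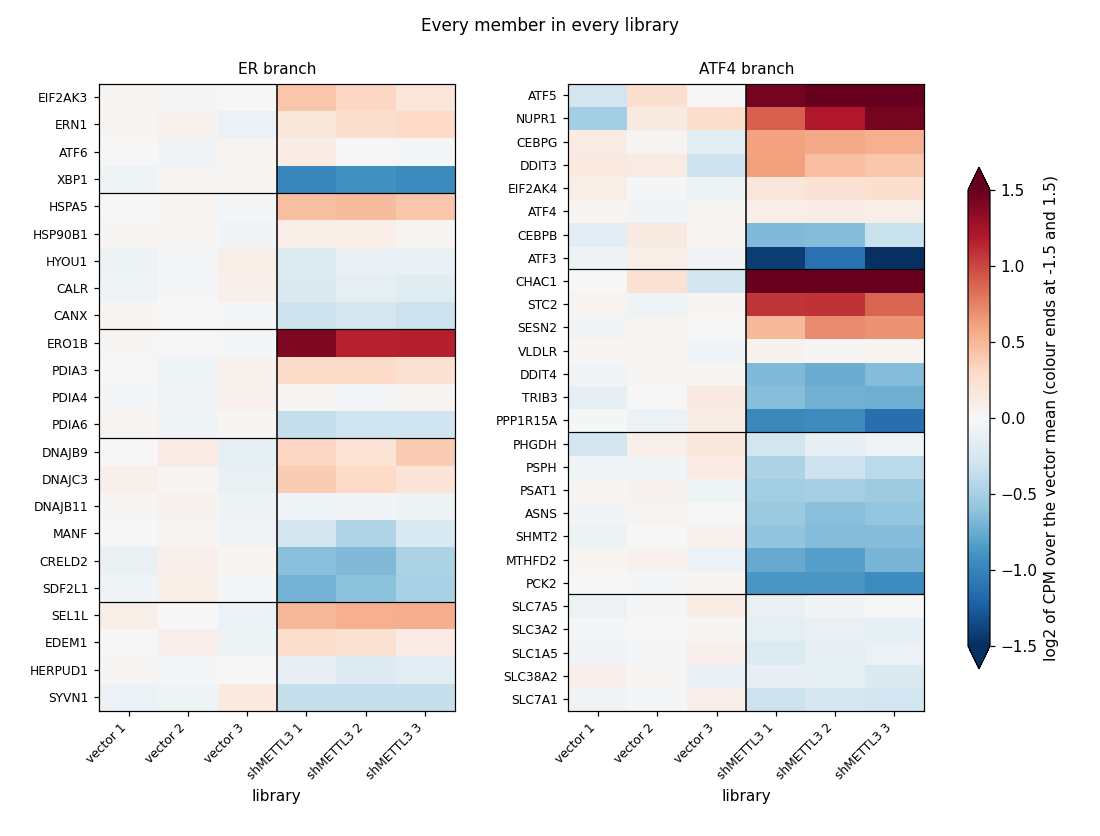
Log2 of the CPM over the mean of the vector libraries, for each member (rows, ordered by branch and role) in each of the 6 libraries (columns). The 3 shMETTL3 columns share their colours within a row, red for ATF5, CHAC1 and STC2 and blue for ATF3, XBP1 and the 6 called amino acid synthesis genes, while PHGDH and the transporters are pale.

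Most of the listed enzymes of amino acid synthesis, with SHMT2, MTHFD2 and PCK2 counted among them, were lower. Of the 7 genes, 6 were lower and none higher, against 32.9% and 33.7% of all genes tested, and their log2 fold changes ran from -0.90 to -0.15 with a median of -0.59. ASNS, asparagine synthetase and the textbook ATF4 target, had 108, 113 and 111 CPM in vector and 75.2, 71.4 and 73.8 CPM in shMETTL3 libraries, with a log2 fold change of -0.59 (standard error 0.053, adjusted p = 1.39e-10). In the serine pathway, PSAT1 and PSPH were lower at -0.52 and -0.39. PHGDH, which catalyses the entry step, had 14.8, 18.97 and 20.2 CPM in vector and 14.9, 16.5 and 17.3 CPM in shMETTL3 libraries. It was not called (log2 fold change -0.15, adjusted p = 0.197), except without vector replicate 1, where it was called lower at -0.28. The mitochondrial one-carbon enzymes SHMT2 and MTHFD2, which draw on serine, fell to 0.645 and 0.590 times the vector level. PCK2, the mitochondrial phosphoenolpyruvate carboxykinase, had the largest fall of these enzymes (log2 fold change -0.90, standard error 0.065, adjusted p = 1.6e-12), from 48.4, 48.0 and 49.6 CPM to 26.5, 26.5 and 25.3 CPM.

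The 5 amino acid transporters were all below 0 but close to it, with log2 fold changes from -0.28 to -0.05 and 4 of the 5 called lower, beside 32.9% of all genes. SLC7A5, the light chain of the LAT1 exchanger of large neutral amino acids, had 1715, 1787 and 1967 CPM in vector and 1691, 1779 and 1828 CPM in shMETTL3 libraries, with overlapping groups and no call (log2 fold change -0.05, adjusted p = 0.464). Its heavy chain SLC3A2 was at -0.13, the glutamine transporters SLC1A5 and SLC38A2 at -0.15 and -0.16, and the cationic amino acid transporter SLC7A1 at -0.28 (adjusted p = 2.59e-05). With scaling by library size alone, which raised all genes alike, SLC3A2, SLC1A5 and SLC38A2 lay above 0, SLC7A1 was at -0.11, and these 4 calls of a fall were lost, while SLC7A5 was called higher at 0.13 (adjusted p = 0.0247). The call of SLC3A2 was also lost with upper-quartile scaling (-0.11) and without shMETTL3 replicate 1 (-0.13) or 3 (-0.12), that of SLC1A5 without shMETTL3 replicate 1 and that of SLC38A2 without shMETTL3 replicate 3.

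The 7 ATF4 branch genes with a C/EBP-ATF response element were all called, beside 66.6% of all genes, with CHAC1 and CEBPG higher and ATF3, ASNS, SLC7A1, SLC1A5 and SLC3A2 lower, the calls of these 3 transporters being lost with library size alone. Their median log2 fold change was -0.15, and that of the 17 ATF4 branch genes with a window but no match also -0.15. As with the ER stress element, genes of both directions held the letters.

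Between the branches, the ATF4 branch held the larger changes at both ends, from ATF3 to CHAC1, and a lower median. The median log2 fold change was 0.02 in the ER branch and -0.15 in the ATF4 branch, beside 0.0022 over all genes tested. The lower median did not hold across the ATF4 branch. Its regulators had a median of 0.35 and its stress outputs of 0.04, its amino acid synthesis genes of -0.59 and its transporters of -0.15. The further lists described below had nearly equal medians, 0.0234 for ER genes and -0.0171 for ATF4 genes. Relative to the vector mean, the median of the ER branch was 0.02, -0.02 and -0.02 in the shMETTL3 libraries, beside a spread between libraries of 0.0184 (pooled SD), and that of the ATF4 branch was -0.21, -0.14 and -0.14, beside a spread of 0.0361. The sign of the ER branch median was not stable, since it fell below 0 without vector replicate 1, vector replicate 2 or shMETTL3 replicate 1, with -0.0160 without vector replicate 2. With library size alone the medians were 0.19 and 0.0275, both above 0. The difference between them was 0.16 in both fits, but a scaling that shifts all genes nearly alike can hardly change it. Per shMETTL3 library the difference between the medians was 0.23, 0.12 and 0.12, beside a spread between libraries of 0.0530 (pooled SD). These medians were computed over genes chosen for their pathway and carry no test. The median absolute log2 fold change was 0.30 in the ER branch, 0.57 in the ATF4 branch and 0.41 over all genes. An absolute log2 fold change of at least 1 with a call and no overlap between groups was reached by 1 ER branch gene, ERO1B, and by 6 ATF4 branch genes, or 4.35% and 22.2%, against 17.5% of all genes tested. Of the 6, PPP1R15A, STC2 and NUPR1 fell short of 1 in at least 1 alternative (-0.83, 0.98 and 0.98 at the least). The groups did not overlap for 20 of 23 and 24 of 27 genes, or 87.0% and 88.9%, against 69.4% of all genes. Median vector levels were 87.5 and 62.9 CPM in the branches against 16.3 CPM over all genes. The part of level in these shares and sizes was not tested.

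**Figure D4:**
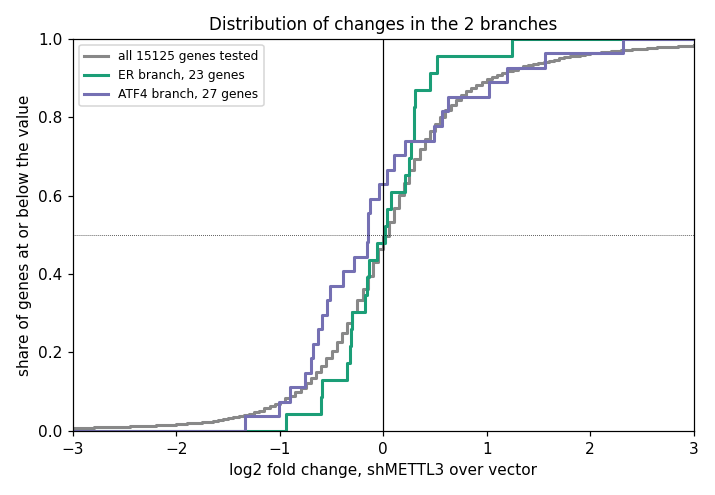
Share of genes (vertical axis) at or below each log2 fold change of shMETTL3 over vector (horizontal axis), for all 15125 genes tested and for the 2 branches. The ER branch curve is steep around 0, with a median absolute change of 0.30, while the ATF4 branch is wider, at 0.57, and crosses the dotted line at its median of -0.15.

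The summed output of each branch was dominated by a few abundant transcripts. The ER branch summed to 6540 to 6576 CPM in vector and 6238 to 6398 CPM in shMETTL3 libraries, and the ATF4 branch to 5066 to 5349 CPM and 4619 to 4740 CPM. As shares of the raw library totals the order turned, with 0.602 to 0.626% against 0.663 to 0.674% for the ER branch and 0.482 to 0.492% against 0.494 to 0.504% for the ATF4 branch, so the direction of the sums depended on the scaling. Per kilobase of the canonical transcript, a level that allows genes to be compared, SLC3A2, CANX and SLC7A5 stood highest in the vector libraries at 426, 400 and 400 CPM per kilobase, followed by HSP90B1 at 363, CALR at 338 and ATF4 at 307 CPM per kilobase. HSPA5 stood at 168 CPM per kilobase in vector and 229 in shMETTL3 libraries, and XBP1 at 160 and 83.4. Among the transcription factors, CHOP and ATF5 were far below ATF4, with 6.84 CPM per kilobase for DDIT3 and 2.76 for ATF5 in the vector libraries.

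Further genes of the same pathways were listed for their function. Of 56 further genes of ER folding, translocation and degradation, 53 were tested and 37 called, or 69.8%, close to the 66.6% of all genes, with 21 higher and 16 lower (29 and 9 with library size alone), and their median log2 fold change was 0.02. Among called genes with an average log2 CPM of at least 2, the largest rises were MBTPS2, the site 2 protease that releases ATF6 (log2 fold change 1.01, standard error 0.060, adjusted p = 2.76e-14), and EDEM3, a mannosidase of glycoprotein disposal (0.86, adjusted p = 7e-12). MBTPS2 lies on chromosome X, where the 439 tested genes had a median log2 fold change of 0.74. The largest falls were FKBP11, a prolyl isomerase of the secretory pathway (-1.39, adjusted p = 1.06e-12), and PRKCSH, the beta subunit of glucosidase II (-0.61, adjusted p = 2.31e-10).

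Of 44 further genes of eIF2α signalling and of amino acid metabolism and transport, 41 were tested and 34 called, or 82.9%, beside 66.6% of all genes, with 18 higher and 16 lower (22 and 14 with library size alone) and a median log2 fold change of -0.02. By the same rule, the largest falls and rises were as follows. CTH, which makes cysteine from cystathionine and is induced by ATF4, fell from 143, 147 and 145 CPM to 49.0, 47.7 and 47.4 CPM (log2 fold change -1.60, standard error 0.053, adjusted p = 8.33e-20). EIF4EBP1, a repressor of cap-dependent translation, was at -1.08 (adjusted p = 4.44e-14). In the other direction, SLC1A4, a transporter of neutral amino acids, rose from 8.91, 9.28 and 11.2 CPM to 24.7, 23.8 and 26.2 CPM (log2 fold change 1.35, standard error 0.093, adjusted p = 7.58e-13), and GDF15, a secreted stress cytokine, was at 0.75 (adjusted p = 4.6e-10). Enzymes of amino acid and one-carbon metabolism on this further list went both ways, and the following were picked after their values were seen. ALDH18A1, which makes the precursor of proline, was higher at 0.47 (adjusted p = 4.01e-09), as were BCAT1 at 1.58 and ALDH1L2 at 0.53. BCAT1 had low counts, 12, 24 and 14 in vector and 54, 46 and 62 in shMETTL3 libraries, with a standard error of 0.281. PYCR1, which completes proline synthesis, was lower at -0.44, as were MTHFD1L at -0.59, GOT1 at -0.67 and SHMT1 at -0.76.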

How the data were processed

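RNA of A549 cells was sequenced in 3 vector and 3 shMETTL3 libraries. Reads had been aligned to hg19 by HISAT2, and the authors deposited raw counts per gene from htseq, not normalized. The submitters' processing notes name HISAT2 2.2.1 and HTSeq 0.13.5, the paper's methods earlier versions, and the annotation and strand setting are not given in the sources used here. Groups and replicate numbers came from the sample titles. The paper states in general that experiments were repeated independently, but no source used here says so of these libraries in particular, and p-values may measure technical spread only.

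Counts were tested in R 4.3.3 with edgeR 4.0.16 (TMM, filterByExpr, glmQLFit and glmQLFTest with the group only, Benjamini-Hochberg adjustment over 15125 genes). Each standard error was the unshrunk log2 coefficient divided by the root of its F. DESeq2 1.42.0, limma 3.58.1 and the other alternatives are given at the end. The functions were tested on simulated data. The floor of 3 counts covers counting error only. Within a group, libraries differed by more than sampling noise, with a chi-square per degree of freedom from 2.79 to 7.56. Of the rows, 27 had names turned into dates and none is named.

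The members and lists were chosen with earlier results of these data known. EIF2AK4 was placed in the ATF4 branch. Values in every library were given for 12 fixed core genes (ERN1, XBP1, ATF6, EIF2AK3, EIF2AK4, HSPA5, ATF4, DDIT3, ATF3, TRIB3, CHAC1, ASNS) and for called members with groups apart and an absolute log2 fold change of 1 or more, and for other examples chosen after their values were seen. The 2 largest rises and falls of each further list were named among called genes with an average log2 CPM of at least 2. Positions and transcript lengths came from GENCODE v44 on GRCh37 (DDIT4 without a canonical tag), promoters from RefSeq for GRCh38.p14.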

Additional observations from a re-analysis of the deposited data

How the results depend on the processing

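Of the 50 genes, 35 kept their call and direction under all 14 alternatives (RLE and upper-quartile scaling, library size alone, no filter on low counts, at least 10 counts in every library, DESeq2, limma-voom, a replicate block, and each of the 6 libraries left out). Upper-quartile scaling moved the ER branch median to 0.0385 and lost the calls of HYOU1 and SLC3A2, and counting EIF2AK3 in the ATF4 branch turned it to -0.0233. Library size alone moved it to 0.19 and turned the ATF4 branch median to 0.0275. It put DNAJB11 at 0.11, HERPUD1 at 0.0142, HYOU1 at 0.0346, PHGDH at 0.0275, SLC3A2 at 0.0457, SLC7A5 at 0.13, SLC1A5 at 0.0277 and SLC38A2 at 0.0130, and kept 35 of the 42 calls. It lost those of CALR, HERPUD1, HYOU1, SLC3A2, SLC7A1, SLC1A5 and SLC38A2 and added 6 (ATF6, HSP90B1, PDIA4, ATF4, SLC7A5 and VLDLR). With it 65.8% of called genes were higher, against 50.6%.

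With one library left out, the ER branch median lay between -0.0160, with vector replicate 2 left out, and 0.0452, with vector replicate 3 left out, ATF6 between -0.00506 and 0.0559, PDIA4 between -0.0160 and 0.0452 and SLC7A5 between -0.0944 and 0.00612. The calls of HYOU1, SLC3A2, SLC1A5, HERPUD1 and SLC38A2 were each lost without at least 1 library, and PHGDH was called without vector replicate 1. ATF4 passed the test under upper-quartile scaling, library size alone, limma-voom, the stricter filter and without vector replicate 3.

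Same-numbered libraries did not deviate together (correlations from -0.00575 to 0.0507 over 15125 genes, 2 of 3 in each group closest to their own number), so the numbers were not taken as pairs. A replicate block gave 10111 called genes against 10067 and kept all 42 calls among the 50 genes. At 3 libraries a group, the least expressed genes, NUPR1 and CHAC1, carried the largest standard errors.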

Other observations

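The subunits of the translation factors on which both eIF2α kinases converge, chosen as a group after their values were seen, were all called. Of the 8 eIF2 and eIF2B subunits, 6 were higher and 2 lower, with log2 fold changes from -0.38 for EIF2B3 to 0.36 for EIF2S1 and a median of 0.21, beside 66.6% of all genes called. EIF2S3 lies on chromosome X. PPP1R15B, the constitutive partner of the eIF2α phosphatase, was at 0.14 (adjusted p = 0.0187), while the inducible PPP1R15A was at -1.01.

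MTHFD2P1, a pseudogene of MTHFD2 seen after its values were known, was counted 66, 94 and 70 times with the vector and 0, 0 and 6 times with shMETTL3 (fitted log2 fold change -5.29, adjusted p = 4.46e-11). It held at most 2.25% as many counts as MTHFD2, whose log2 fold change was -0.76.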
